A study of Homo sapiens with 12 samples.

Results

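The genes described here are 44 genes of the NF-κB system and of cytokine signalling, among the 38434 named genes measured in the series. They comprise 5 NF-κB factors, 5 inhibitors of NF-κB, 3 other NF-κB target genes, 10 cytokines, 11 chemokines and 10 subunits of interleukin and cytokine receptors. They were chosen by gene symbol, with earlier results of these data known, and all 44 symbols were present in both deposited count tables. RNA was measured by strand-specific poly(A) mRNA sequencing in 12 libraries, 3 in each of 4 groups. LC-AI-maspin and LK2-maspin cells were RERF-LC-AI and LK-2 cells, both lung squamous cell carcinoma (LUSC) lines, carrying a lentiviral vector for maspin together with the green fluorescent protein ZsGreen. LC-AI-ctrl and LK2-ctrl cells carried the vector for ZsGreen alone, so that transduction, blasticidin selection and ZsGreen were shared by all 4 groups. Each group was a stable population pooled from the clones that survived selection. Maspin can therefore not be told apart from other differences between the maspin and ctrl pools of a line. Below, an effect of maspin means the difference between these populations. No library was made from cells stimulated with a cytokine, so the values describe unstimulated cultures.

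NF-κB factors are dimers of REL-family proteins that wait in the cytoplasm, held by inhibitor proteins of the IκB family. In the canonical pathway, signals from tumor necrosis factor, interleukin-1 or toll-like receptors lead to the breakdown of IκBα and release RELA-containing dimers, which bind κB sites in DNA and raise transcription of cytokines, chemokines, survival genes and their own inhibitors. In the noncanonical pathway, the NFKB2 precursor is processed to its short form, which pairs with RELB. Cytokines of the interleukin-6 family signal through the shared receptor subunit IL6ST to JAK kinases and STAT factors, and in epithelial tumors both systems are known for shaping inflammation, survival and the recruitment of leukocytes.

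To show which of these genes carried a κB match close to their start, promoter windows from RefSeq (GRCh38.p14) were searched on both strands for the κB consensus of 10 bases, in the 250 bases before and 50 bases after 1 transcript start per gene. For IL1R1, IL4R, LIFR, TNFAIP2 and TNFAIP3 that start lies inside the annotated gene, and the outermost start was not searched. Of the 44 genes, 35 had a window, and 14 of these (40%) held a match, against 2075 of 35116 windows of all genes (5.91%). The 44 genes were chosen for roles in NF-κB and cytokine signalling, so this share is no test of the list. IL18, NFKBIE, CXCL16, LIF, RELB, CSF1, CCL2, CX3CL1 and CCL5 had none in the table used. Among the genes that were higher in LC-AI-maspin cells (values below), 2 of 4 with a window held a match, IL1R1 being 1 of the others. Among those that were lower 0 of 5 did, TNFAIP2 included. Most of the 14 genes with a match did not pass in RERF-LC-AI cells, and a difference between these few genes was not tested. The 250 bases before the start of the 2 higher genes with a match are shown, 5′ to 3′ on the plus strand, with matches in capitals (overlapping matches run together), BIRC3 at chr11:102317234-102317483 and IL32 at chr16:3065153-3065402.
BIRC3: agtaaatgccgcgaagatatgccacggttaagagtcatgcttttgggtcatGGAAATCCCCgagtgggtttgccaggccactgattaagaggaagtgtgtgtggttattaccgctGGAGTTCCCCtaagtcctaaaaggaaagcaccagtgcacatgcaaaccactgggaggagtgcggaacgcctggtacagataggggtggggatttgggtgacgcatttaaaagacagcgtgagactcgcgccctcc
IL32: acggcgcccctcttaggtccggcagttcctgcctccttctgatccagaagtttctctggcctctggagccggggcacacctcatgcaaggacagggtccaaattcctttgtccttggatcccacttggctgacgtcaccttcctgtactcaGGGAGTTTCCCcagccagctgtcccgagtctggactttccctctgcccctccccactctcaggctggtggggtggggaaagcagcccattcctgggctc

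The same search gave matches in 12 genes whose RNA did not pass the test in RERF-LC-AI cells, and 8 of these are shown as 30 bases around the first match, in the sense of the gene and with the match in capitals, so that the called and uncalled genes can be compared. NFKB1 lies at chr4:102501300-102501329 (plus strand), REL at chr2:60881518-60881547 (plus), NFKBIA at chr14:35404811-35404840 (minus) and IL6 at chr7:22727117-22727146 (plus). CXCL1 lies at chr4:73869305-73869334 (plus), CXCL2 at chr4:74099253-74099282 (minus), CXCL3 at chr4:74038748-74038777 (minus) and CXCL5 at chr4:73998748-73998777 (minus).
NFKB1: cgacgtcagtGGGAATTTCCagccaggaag
REL: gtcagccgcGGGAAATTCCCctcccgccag
NFKBIA: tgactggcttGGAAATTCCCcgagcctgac
IL6: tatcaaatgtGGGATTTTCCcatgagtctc
CXCL1: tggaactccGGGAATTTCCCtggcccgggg
CXCL2: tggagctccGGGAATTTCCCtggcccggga
CXCL3: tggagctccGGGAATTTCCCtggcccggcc
CXCL5: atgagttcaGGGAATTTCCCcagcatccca

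CXCL1, CXCL2, CXCL3 and CXCL5 carried the same capital letters, on both strands of chromosome 4. The other 4 uncalled genes with a match were NFKBIZ, TNFAIP3, CCL20 and IL4R. A match is a description of the letters in this window and no evidence of binding.

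Libraries held 50143577 to 65454432 counts over named genes in RERF-LC-AI cells and 39802246 to 54941357 in LK-2 cells. SERPINB5, the maspin gene, was at 438 to 513 CPM (counts per 1000000 counts of the TMM-scaled library size) in LC-AI-maspin libraries and 0.143 to 0.271 CPM in LC-AI-ctrl libraries. It was at 48.4 to 50.9 CPM in LK2-maspin and 1.87 to 2.02 CPM in LK2-ctrl libraries, so the labels held in all 12 libraries, and the mean of the LC-AI-maspin libraries was 9.53 times that of the LK2-maspin libraries. Of the squamous markers, SOX2 was present in LK-2 cells, but TP63 was at a mean of 1.27 CPM or less in every group, and the 7 squamous markers summed to only 10.3 to 11.6 CPM in RERF-LC-AI libraries. In LK-2 cells they summed to 422 to 484 CPM in LK2-maspin and 530 to 572 CPM in LK2-ctrl libraries, nearly all of it SOX2 (log2 ratio -0.33, adjusted p = 0.0756, but 1.23e-12 with the replicate block). KRT5 was higher by the test, at 5.62 to 9.08 CPM in LK2-maspin and 0.665 to 1.01 CPM in LK2-ctrl libraries. The 5 epithelial markers summed to 1431 to 1543 CPM in LC-AI-maspin, against 1954 to 2076 CPM in LC-AI-ctrl libraries, with KRT8, KRT18 and KRT19 lower by the test. In LK-2 cells they summed to 2053 to 2105 CPM in LK2-maspin and 1844 to 1886 CPM in LK2-ctrl libraries, where none passed, but with the replicate block KRT8, KRT18 and KRT19 were higher and CDH1 lower. The 10 leukocyte markers summed to 44.9 to 48.4 CPM in LC-AI-maspin and 47.2 to 48.5 CPM in LC-AI-ctrl libraries, nearly all of it CD68, while CD3D was at 0 in all 12 libraries. The 6 fibroblast markers summed to 21.9 to 24.6 CPM in LC-AI-maspin and 30.8 to 46.4 CPM in LC-AI-ctrl libraries, with only COL1A2 lower by the test. The part of these marker shifts in the results below was not tested, and in bulk RNA fewer cells of a type cannot be told apart from less RNA per cell.

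Maspin expression came with changes in 12 of the 41 genes tested in RERF-LC-AI cells (29.3%), where 10.5% of all 25197 genes tested passed (edgeR quasi-likelihood test, Benjamini-Hochberg adjusted p under 0.05). Because the genes were chosen with earlier results of these data known, this share and those below are no test of the list. NFKB2, RELB, NFKBIE, BIRC3, IL32 and IL1R1 were higher in LC-AI-maspin cells, and RELA, TNFAIP2, CSF1, IL7R, IL6R and IL13RA1 were lower. The higher genes include both parts of the noncanonical NF-κB dimer, and 3 of the 6 lower genes are interleukin receptor subunits. The largest change was in IL7R, at 0.262 of its LC-AI-ctrl level, and the other 11 changes lay between 0.661-fold and 1.72-fold. The 3 libraries of each group did not overlap for 17 of the 41 genes (41.5%), against 25.1% of all genes tested. All genes tested split into 1010 higher (4.01%) and 1645 lower (6.53%), but into 1305 and 1388 when scaled by upper quartiles and 1408 and 1287 when scaled by library size alone. With either of these scalings 7 of the 44 genes were higher and 4 lower, because RELA and TNFAIP2 no longer passed and LIF did. With all 12 libraries in 1 fit, 6 of the 12 calls remained, and calls over all genes fell from 2655 of 25197 to 1163 of 28123. With the replicate number as a block, 7 were higher (6.34% of all genes were) and 8 lower (9.85%), 16.2% of all genes being called.

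In LK-2 cells 0 of the 38 genes tested passed, where 0.533% of 26270 genes did (0.373% higher and 0.16% lower). Unadjusted p was under 0.05 for 3 of the 38 (REL, ICAM1 and CX3CL1), and the likelihood ratio test and DESeq2 also gave 0 calls. With the replicate number as a block, 2 genes passed (4.53% of all genes did), with REL higher (2.64% of all genes were) and IL13RA1 lower (1.89%) in LK2-maspin cells. The libraries did not overlap for 4 of the 38 genes (10.5%), against 11.9% of all genes tested. Without the block, the standard error (SE) of the log2 ratio of maspin over ctrl cells had a median of 0.09 over the genes tested in RERF-LC-AI cells. It was 0.17 over those tested in LK-2 cells, so that without the block a change of a given size was harder to see there.

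**Figure D1:**
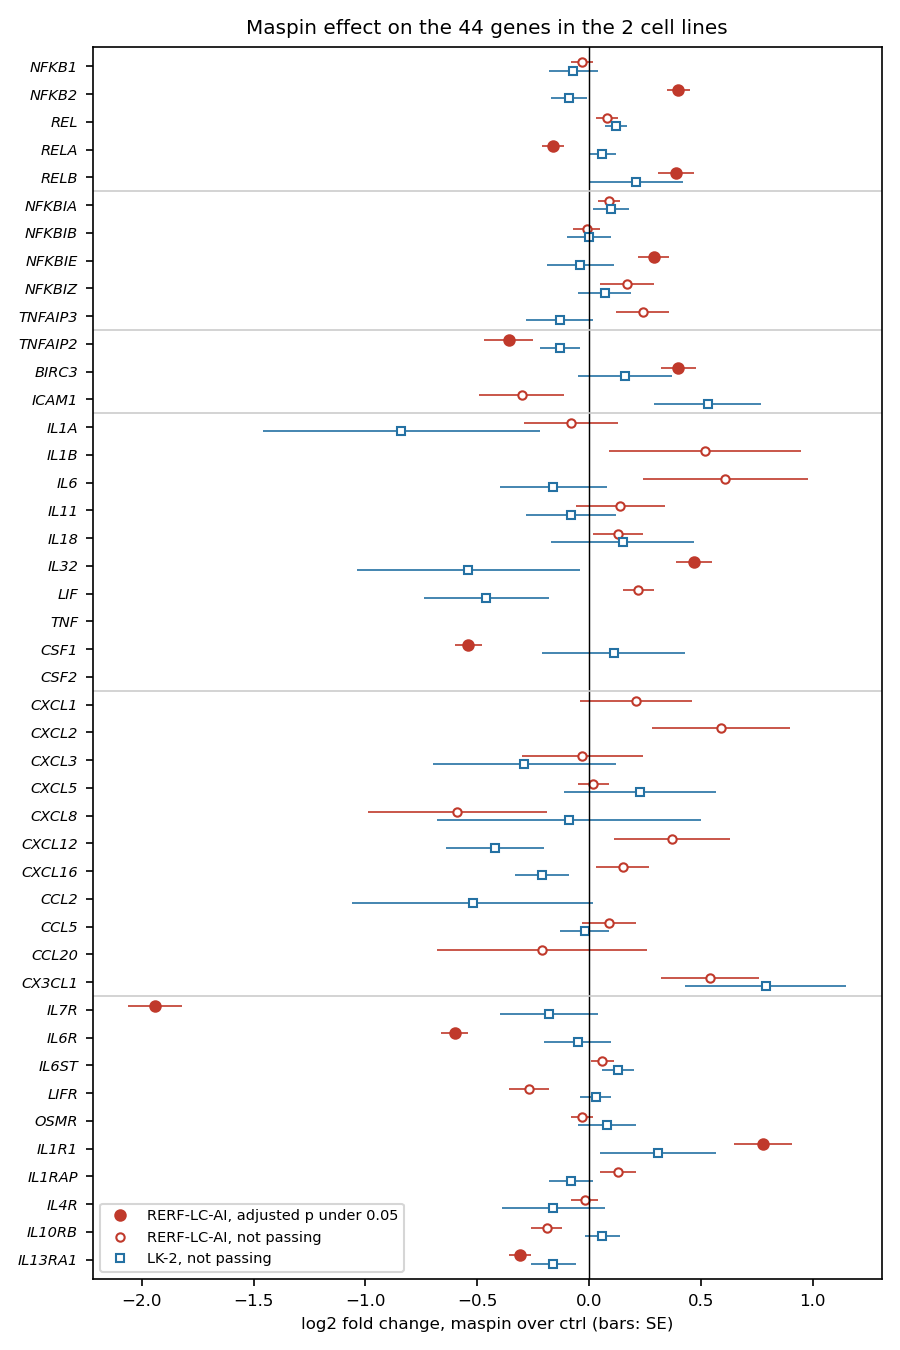
Log2 fold change between maspin and ctrl cells (horizontal axis) with its SE (bars) for the 44 genes, grouped by role from NF-κB factors at the top to receptors at the bottom; circles are RERF-LC-AI cells and squares LK-2 cells, and filled symbols have an adjusted p under 0.05. The 12 filled circles run from IL7R at -1.94 to IL1R1 at 0.78, no square is filled, and genes that were not tested in a line have no symbol there.

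Among the NF-κB factors, both genes of the noncanonical dimer were higher in LC-AI-maspin cells and RELA was slightly lower, while NFKB1 and REL did not pass. MAP3K14, CHUK and TRAF3, other genes of the noncanonical pathway, did not pass in RERF-LC-AI cells. Processing of the NFKB2 precursor was not measured. NFKB2 (gene ID 4791), which encodes the p100 precursor of p52, was at 83.5, 84.1 and 81.8 CPM in LC-AI-maspin libraries, against 65.5, 60.2 and 63.7 CPM in LC-AI-ctrl libraries. All LC-AI-maspin libraries were above all LC-AI-ctrl libraries, with a log2 ratio of 0.40 (SE 0.05, adjusted p = 1.44e-06). In the LK-2 line it was at 19.2, 19.8 and 20.1 CPM in LK2-maspin and 21.1, 19.4 and 22.7 CPM in LK2-ctrl libraries, which overlapped. RELB (5971), the partner of p52, was at 22.1, 23.2 and 20.2 CPM in LC-AI-maspin and 17.4, 17.7 and 14.9 CPM in LC-AI-ctrl libraries. The groups did not overlap, and the log2 ratio was 0.39 (SE 0.08, adjusted p = 0.000827, but 0.0741 with all 12 libraries in 1 fit). In LK-2 cells RELB was at 1.94, 1.98 and 2.45 CPM in LK2-maspin and 2.33, 1.64 and 1.51 CPM in LK2-ctrl libraries.

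RELA (5970), the p65 subunit of canonical NF-κB, was at 112, 100.4 and 99.0 CPM in LC-AI-maspin libraries, against 117, 116 and 114 CPM in LC-AI-ctrl libraries. The groups lay close together without overlap, and the log2 ratio was -0.16 (SE 0.05, adjusted p = 0.0424). This call lay near the threshold and was lost in many alternatives, although the log2 ratio stayed between -0.21 and -0.12. The adjusted p was 0.0968, 0.0789 and 0.103 without LC-AI-ctrl library 1, 2 or 3, 0.155 and 0.289 without LC-AI-maspin library 2 or 3, 0.230 with all 12 libraries in 1 fit, and 0.0901 and 0.139 after upper-quartile scaling and after scaling by library size alone. In LK-2 cells RELA was at 76.2, 75.4 and 74.4 CPM in LK2-maspin and 77.3, 70.9 and 68.5 CPM in LK2-ctrl libraries. RELA shares exon sequence with RELA-DT on the opposite strand, and whether the counting used strand was not given in the sources used here. NFKB1 (p105 and p50) was at 76.8, 81.8 and 77.1 CPM in LC-AI-maspin, against 80.0, 84.4 and 77.0 CPM in LC-AI-ctrl libraries, and at 23.2, 22.1 and 20.4 CPM in LK2-maspin, against 26.7, 22.0 and 20.2 CPM in LK2-ctrl libraries. Both pairs of groups overlapped, with log2 ratios of -0.03 (SE 0.05) and -0.07 (SE 0.11).

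REL encodes c-Rel, best known from lymphocytes. Of the NF-κB factors it alone passed in LK-2 cells, and only with the replicate block. It was at 244, 258 and 252 CPM in LK2-maspin libraries, against 231, 231 and 230.3 CPM in LK2-ctrl libraries, and all LK2-maspin libraries were above. The log2 ratio of 0.12 (SE 0.05) had an adjusted p of 0.758, and of 0.0311 with the replicate block. In RERF-LC-AI cells REL was at 56.9, 58.5 and 62.3 CPM in LC-AI-maspin and 55.5, 57.8 and 54.9 CPM in LC-AI-ctrl libraries, with a log2 ratio of 0.08 (SE 0.05, adjusted p = 0.435).

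**Figure D2:**
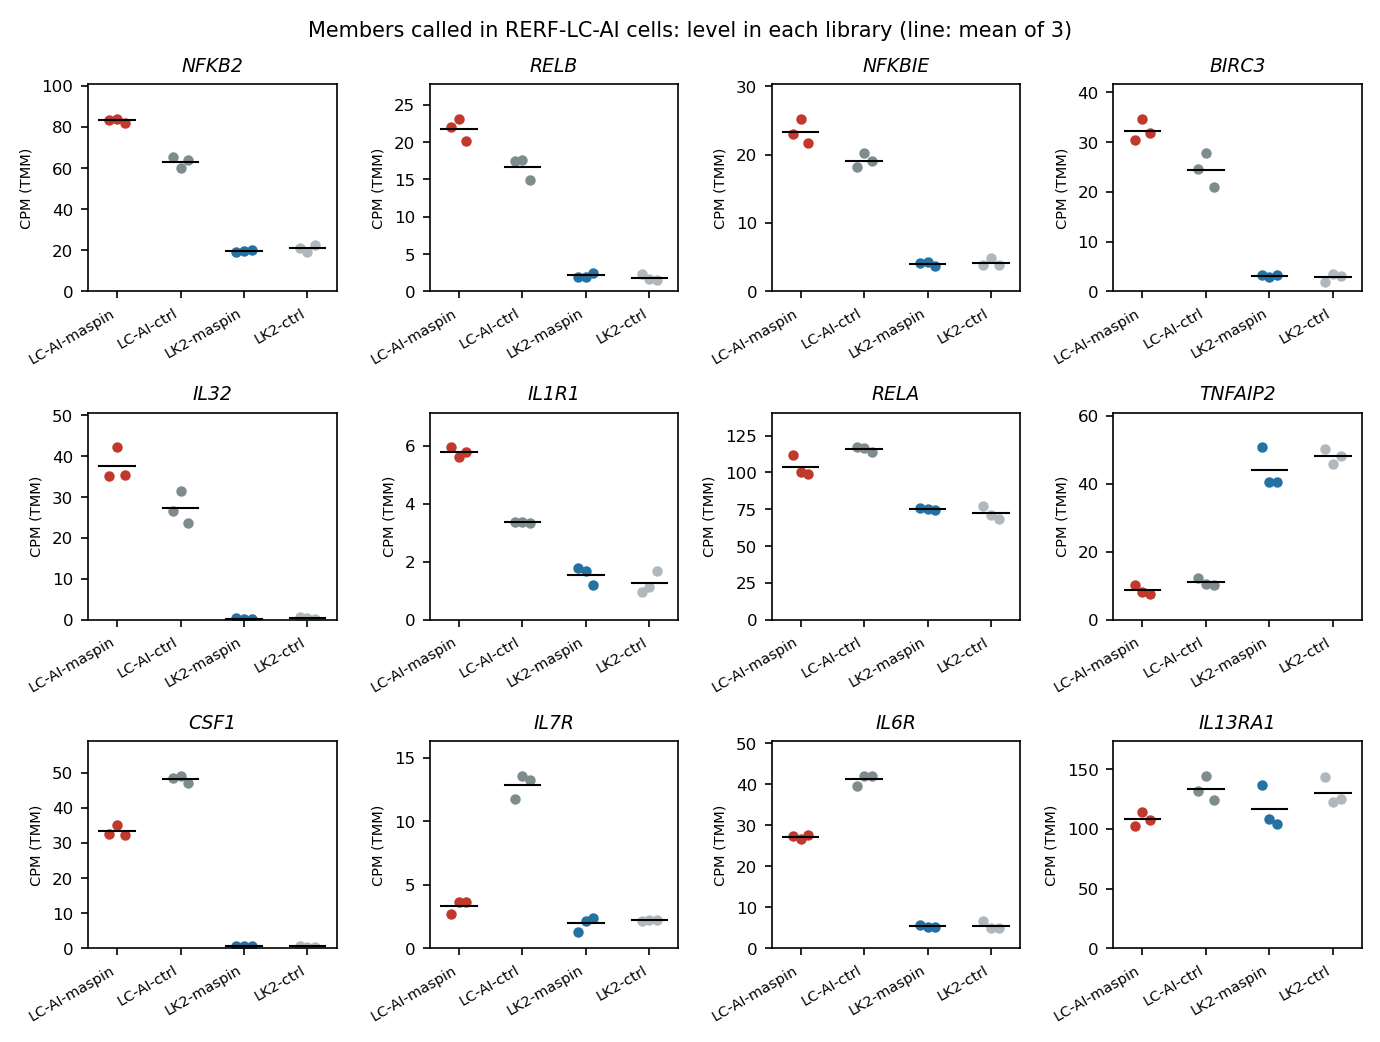
Level in CPM (vertical axes, each from 0) of the 12 genes that passed in RERF-LC-AI cells, in every library; points are libraries and lines are means of 3. LC-AI-maspin points lie above LC-AI-ctrl points for the first 6 genes and below them for the last 6, and no panel has a call between the LK2-maspin and LK2-ctrl points.

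Of the 5 inhibitors, NFKBIE alone passed. NFKBIE (4794), which encodes IκBε, was at 23.0, 25.3 and 21.8 CPM in LC-AI-maspin, against 18.1, 20.2 and 19.0 CPM in LC-AI-ctrl libraries. The groups did not overlap, and the log2 ratio was 0.29 (SE 0.07, adjusted p = 0.00785). It did not pass without LC-AI-maspin library 2 (adjusted p = 0.0889) or with all 12 libraries in 1 fit (0.134). In LK2-maspin libraries it was at 4.07, 4.36 and 3.69 CPM, against 3.78, 4.84 and 3.85 CPM in LK2-ctrl libraries. NFKBIA encodes IκBα, the inhibitor that canonical signals destroy and that NF-κB then induces again. It was at 58.6, 61.3 and 60.4 CPM in LC-AI-maspin and 58.1, 55.9 and 55.3 CPM in LC-AI-ctrl libraries. These groups did not overlap, but the log2 ratio of 0.09 (SE 0.05) had an adjusted p of 0.335. In LK-2 cells NFKBIA was at 27.3, 31.4 and 30.8 CPM in LK2-maspin and 27.4, 29.4 and 26.8 CPM in LK2-ctrl libraries (log2 ratio 0.10, SE 0.08).

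NFKBIB, which encodes IκBβ, was level in both lines. It was at 28.7, 31.1 and 29.6 CPM in LC-AI-maspin, against 29.5, 30.8 and 29.9 CPM in LC-AI-ctrl libraries, and at 23.6, 21.2 and 19.4 CPM in LK2-maspin, against 22.1, 22.7 and 19.3 CPM in LK2-ctrl libraries. NFKBIZ, a nuclear IκB protein that acts on secondary target genes, had 7.68, 7.02 and 8.47 CPM in LC-AI-maspin and 7.15, 5.36 and 8.16 CPM in LC-AI-ctrl libraries. It had 5.87, 5.58 and 5.54 CPM in LK2-maspin and 5.42, 5.25 and 5.56 CPM in LK2-ctrl libraries. TNFAIP3 encodes A20, a ubiquitin-editing enzyme that ends NF-κB signalling. It was at 6.67, 6.397 and 7.42 CPM in LC-AI-maspin, against 5.26, 6.67 and 5.41 CPM in LC-AI-ctrl libraries (log2 ratio 0.24, SE 0.12, adjusted p = 0.242). For LK-2 cells it was at 4.17, 3.67 and 4.06 CPM in LK2-maspin and 3.91, 3.97 and 5.16 CPM in LK2-ctrl libraries.

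Of the 3 other targets of NF-κB, one was higher, one lower and one did not pass in RERF-LC-AI cells. BIRC3 (330), which encodes the ubiquitin ligase cIAP2 and whose upstream sequence is printed above, was at 30.4, 34.7 and 31.8 CPM in LC-AI-maspin, against 24.6, 27.8 and 21.0 CPM in LC-AI-ctrl libraries. The groups did not overlap, with a log2 ratio of 0.40 (SE 0.08, adjusted p = 0.000526, but 0.0808 with all 12 libraries in 1 fit). Among LK-2 libraries it was at 3.21, 2.86 and 3.35 CPM in LK2-maspin and 1.91, 3.40 and 3.13 CPM in LK2-ctrl libraries. An unnamed long noncoding RNA overlaps exons of BIRC3 on the opposite strand.

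TNFAIP2, an endothelial and epithelial gene first described as induced by tumor necrosis factor, was at 10.2, 8.32 and 7.50 CPM in LC-AI-maspin, against 12.2, 10.7 and 10.4 CPM in LC-AI-ctrl libraries. It fell by 0.36 on the log2 scale (SE 0.11, adjusted p = 0.0261), with the groups just apart. The adjusted p was 0.121 without LC-AI-ctrl library 1, 0.121 and 0.219 without LC-AI-maspin library 2 or 3, 0.0880 with all 12 libraries in 1 fit, and 0.0539 and 0.0887 after upper-quartile scaling and after scaling by library size alone. In LK-2 cells TNFAIP2 (7127) was at 50.8, 40.5 and 40.4 CPM in LK2-maspin and 50.2, 45.9 and 48.1 CPM in LK2-ctrl libraries, which overlapped. A long noncoding RNA overlaps it on the opposite strand. ICAM1, an adhesion molecule for leukocytes, was at 4.13, 3.33 and 2.09 CPM in LC-AI-maspin and 4.91, 3.18 and 3.61 CPM in LC-AI-ctrl libraries. In LK-2 cells it was at 1.44, 1.06 and 1.48 CPM in LK2-maspin, against 0.819, 0.886 and 1.07 CPM in LK2-ctrl libraries, with a log2 ratio of 0.53 (SE 0.24, adjusted p = 0.786).

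Of the 10 cytokines, IL32 was higher and CSF1 lower in LC-AI-maspin cells, among 8 tested. IL32 (9235), a cytokine that induces other inflammatory cytokines, was at 35.3, 42.2 and 35.5 CPM in LC-AI-maspin, against 26.5, 31.5 and 23.6 CPM in LC-AI-ctrl libraries. The groups did not overlap, and the log2 ratio was 0.47 (SE 0.08, adjusted p = 0.000134). In the LK-2 line it had 19, 8 and 12 counts in LK2-maspin and 30, 20 and 9 counts in LK2-ctrl libraries. IL32 shares exon sequence with the small nuclear RNA gene RNU1-125P on the same strand. CSF1 (1435), the growth factor of macrophages, was at 32.6, 35 and 32.4 CPM in LC-AI-maspin, against 48.6, 49.2 and 47.1 CPM in LC-AI-ctrl libraries. It fell by 0.54 on the log2 scale (SE 0.06, adjusted p = 6.26e-08), with a wide gap between the groups. For LK-2 cells it had 38, 23 and 30 counts in LK2-maspin and 38, 28 and 22 counts in LK2-ctrl libraries.

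LIF, an interleukin-6 family cytokine, lay near the threshold. It was at 34.1, 31.0 and 31.9 CPM in LC-AI-maspin, against 32.2, 25.8 and 25.3 CPM in LC-AI-ctrl libraries, with LC-AI-ctrl library 1 inside the range of the LC-AI-maspin libraries. The log2 ratio of 0.22 (SE 0.07) had an adjusted p of 0.0577, of 0.00326 with the replicate block and of 0.000556 without LC-AI-ctrl library 1. In LK-2 cells LIF had 26, 26 and 29 counts in LK2-maspin and 39, 46 and 34 counts in LK2-ctrl libraries, and the groups did not overlap in CPM (log2 ratio -0.46, SE 0.28, adjusted p = 0.921). IL18, which is released after cleavage by inflammasomes, was at 6.07, 7.60 and 7.57 CPM in LC-AI-maspin and 6.77, 6.38 and 6.30 CPM in LC-AI-ctrl libraries. Among LK-2 libraries it had 45, 29 and 32 counts in LK2-maspin and 26, 29 and 44 counts in LK2-ctrl libraries.

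The best known NF-κB cytokines were scarce. IL1A, which encodes the cell-associated form of interleukin-1, was at 1.39, 1.39 and 1.47 CPM in LC-AI-maspin and 1.90, 1.48 and 1.103 CPM in LC-AI-ctrl libraries, and had 4 to 14 counts in LK2-maspin and 8 to 26 counts in LK2-ctrl libraries. IL6 had 52, 34 and 26 counts in LC-AI-maspin, against 23, 23 and 19 counts in LC-AI-ctrl libraries. Its log2 ratio of 0.61 (SE 0.37) had an adjusted p of 0.369, so a difference was not detectable at this depth. LC-AI-ctrl library 1 and 2 lay within the range of the LC-AI-maspin libraries in CPM. In LK-2 cells IL6 was at 0.915, 0.988 and 0.816 CPM in LK2-maspin and 1.05, 0.905 and 1.09 CPM in LK2-ctrl libraries. IL11, another interleukin-6 family cytokine, was at 1.77, 1.49 and 1.41 CPM in LC-AI-maspin and 1.26, 1.36 and 1.62 CPM in LC-AI-ctrl libraries, and at 1.96, 1.42 and 1.63 CPM in LK2-maspin and 1.81, 1.90 and 1.62 CPM in LK2-ctrl libraries. IL1B, the secreted form of interleukin-1, had 50, 36 and 14 counts in LC-AI-maspin and 28, 16 and 18 counts in LC-AI-ctrl libraries, and 2 to 7 counts in LK2-maspin and 2 to 4 counts in LK2-ctrl libraries.

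TNF and CSF2 were too low to be tested within either line. TNF, the classical inducer of NF-κB, had 0 counts in all LC-AI-maspin and all LK2-ctrl libraries, 6 counts in LC-AI-ctrl library 1 with 0 in the others, and 6, 0 and 2 counts in LK2-maspin libraries. A count of 0 allows up to 3 counts in a library, which is 0.0451 to 0.0579 CPM in LC-AI-maspin and 0.0554 to 0.0667 CPM in LK2-ctrl libraries, for counting error only. CSF2, a growth factor of granulocytes and macrophages, had 4, 6 and 14 counts in LC-AI-maspin, against 3, 2 and 2 counts in LC-AI-ctrl libraries, and 16, 4 and 10 counts in LK2-maspin, against 1, 2 and 6 counts in LK2-ctrl libraries.

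None of the 10 chemokines tested in RERF-LC-AI cells and none of the 8 tested in LK-2 cells passed by edgeR, also with the replicate block, and unadjusted p was under 0.05 for 1 in each line (CX3CL1). CXCL5, a neutrophil attractant, was at 28.9, 32.9 and 27.99 CPM in LC-AI-maspin, against 29.8, 31.2 and 27.3 CPM in LC-AI-ctrl libraries. The libraries overlapped fully, with a log2 ratio of 0.02 (SE 0.07). In LK-2 cells CXCL5 had 28, 35 and 38 counts in LK2-maspin and 20, 44 and 29 counts in LK2-ctrl libraries. CXCL1, CXCL2 and CXCL3 are neighbouring and nearly identical genes whose reads the counting could have shared among them, so their split is uncertain. CXCL1 was at 1.47, 1.001 and 1.05 CPM in LC-AI-maspin and 1.08, 1.25 and 0.682 CPM in LC-AI-ctrl libraries, with at most 2 counts in any LK-2 library. CXCL2 was at 1.81, 1.06 and 1.16 CPM in LC-AI-maspin and 1.121, 0.322 and 1.24 CPM in LC-AI-ctrl libraries, with a log2 ratio of 0.59 (SE 0.31, adjusted p = 0.296). CXCL3 had 36, 59 and 50 counts in LC-AI-maspin and 43, 37 and 47 counts in LC-AI-ctrl libraries, and 25, 9 and 18 counts in LK2-maspin and 25, 19 and 21 counts in LK2-ctrl libraries. So the 4 chemokines with the same κB letters gave no call, whether scarce or well measured.

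CXCL8, which encodes interleukin-8, had 34, 11 and 24 counts in LC-AI-maspin, against 36, 28 and 28 counts in LC-AI-ctrl libraries, and 8, 17 and 10 counts in LK2-maspin, against 5, 22 and 14 counts in LK2-ctrl libraries. CXCL12, the ligand of CXCR4, was at 1.62, 0.970 and 0.871 CPM in LC-AI-maspin and 0.928, 0.840 and 0.882 CPM in LC-AI-ctrl libraries. In LK-2 cells it was at 1.14, 1.72 and 1.40 CPM in LK2-maspin, against 1.74, 2.18 and 1.73 CPM in LK2-ctrl libraries. The LK-2 groups lay just apart, with a log2 ratio of -0.42 (SE 0.22, adjusted p = 0.861). CXCL16, a membrane-bound chemokine and scavenger receptor, was at 5.30, 6.43 and 5.50 CPM in LC-AI-maspin and 5.63, 4.95 and 4.97 CPM in LC-AI-ctrl libraries, and at 6.16, 7.25 and 6.03 CPM in LK2-maspin and 7.77, 7.18 and 7.51 CPM in LK2-ctrl libraries.

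CCL5, an attractant of T cells and monocytes, was at 7.56, 5.94 and 5.74 CPM in LC-AI-maspin, against 6.496, 5.83 and 5.68 CPM in LC-AI-ctrl libraries. It was at 10.3, 8.92 and 10.5 CPM in LK2-maspin, against 9.96, 9.29 and 10.9 CPM in LK2-ctrl libraries, so that both pairs of groups overlapped. CX3CL1 encodes fractalkine, a chemokine anchored in the membrane. It was at 1.72, 1.204 and 1.55 CPM in LC-AI-maspin and 1.102, 1.04 and 0.922 CPM in LC-AI-ctrl libraries, which did not overlap (log2 ratio 0.54, SE 0.22, adjusted p = 0.135). In the LK-2 line it had 60, 42 and 27 counts in LK2-maspin and 23, 21 and 33 counts in LK2-ctrl libraries (log2 ratio 0.79, SE 0.36, adjusted p = 0.776). The means of CX3CL1 were higher in maspin cells of both lines, but neither difference passed. CCL2, the main monocyte attractant, had 0, 2 and 8 counts in LC-AI-maspin and 0, 4 and 4 counts in LC-AI-ctrl libraries, too few to be tested, and 10, 20 and 10 counts in LK2-maspin and 34, 14 and 14 counts in LK2-ctrl libraries. CCL20, the ligand of CCR6, had 18, 11 and 17 counts in LC-AI-maspin and 18, 20 and 9 counts in LC-AI-ctrl libraries, with at most 4 counts in an LK2-maspin and 6 in an LK2-ctrl library.

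Of the receptor subunits, 3 of 10 were lower and 1 was higher in LC-AI-maspin cells (40%, against 10.5% of all genes), and the groups did not overlap for 7 of the 10 (70%, against 25.1%). IL7R (3575), the α chain of the interleukin-7 receptor, which it shares with thymic stromal lymphopoietin, was at 2.74, 3.64 and 3.64 CPM in LC-AI-maspin, against 11.7, 13.6 and 13.2 CPM in LC-AI-ctrl libraries. It fell by 1.94 on the log2 scale (SE 0.12, adjusted p = 6.98e-13), and every LC-AI-maspin library was far below every LC-AI-ctrl library. In LK-2 cells IL7R was at 1.31, 2.18 and 2.38 CPM in LK2-maspin and 2.16, 2.25 and 2.20 CPM in LK2-ctrl libraries, which overlapped. IL6R (3570), the chain that binds interleukin-6, was at 27.4, 26.7 and 27.7 CPM in LC-AI-maspin, against 39.6, 41.9 and 42.2 CPM in LC-AI-ctrl libraries. It fell by 0.60 on the log2 scale (SE 0.06, adjusted p = 1.79e-08). For LK-2 cells it was at 5.62, 5.27 and 5.13 CPM in LK2-maspin and 6.64, 5.04 and 4.93 CPM in LK2-ctrl libraries.

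IL13RA1 (3597), a chain of the interleukin-13 and type II interleukin-4 receptors, was at 103, 114 and 107 CPM in LC-AI-maspin, against 132, 145 and 124 CPM in LC-AI-ctrl libraries. It fell by 0.31 on the log2 scale (SE 0.05, adjusted p = 0.000211, but 0.0681 with all 12 libraries in 1 fit), and the groups did not overlap. Among LK-2 libraries it was at 136, 109 and 104 CPM in LK2-maspin, against 143, 122 and 125 CPM in LK2-ctrl libraries. These groups overlapped, because library 1 was high in both, and the adjusted p was 0.928 without and 0.00507 with the replicate block (log2 ratio -0.17). IL1R1 (3554), the signalling receptor of interleukin-1, moved the other way in RERF-LC-AI cells. It was at 5.96, 5.599 and 5.78 CPM in LC-AI-maspin, against 3.36, 3.38 and 3.33 CPM in LC-AI-ctrl libraries, with a log2 ratio of 0.78 (SE 0.13, adjusted p = 5.43e-05). The 3 libraries of each group lay close to one another, with a clear gap between the groups. In LK-2 cells it was at 1.77, 1.70 and 1.202 CPM in LK2-maspin and 0.966, 1.13 and 1.69 CPM in LK2-ctrl libraries (log2 ratio 0.31, SE 0.26). The antisense gene IL1R1-AS1 overlaps exons of IL1R1. IL1RAP, the accessory chain that IL1R1 needs for signalling, was at 15.1, 15.6 and 16.8 CPM in LC-AI-maspin and 15.1, 14.0 and 14.4 CPM in LC-AI-ctrl libraries, and at 11.0, 13.2 and 12.4 CPM in LK2-maspin and 12.8, 12.6 and 13.3 CPM in LK2-ctrl libraries. It did not pass in either line.

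The chains that IL6R and LIF work with did not pass. IL6ST (gp130), the shared signalling chain, was at 177, 194 and 174 CPM in LC-AI-maspin, against 172, 185 and 166 CPM in LC-AI-ctrl libraries, with a log2 ratio of 0.06 (SE 0.05). In the LK-2 line it was at 41.9, 40.3 and 40.3 CPM in LK2-maspin and 38.2, 38.0 and 35.9 CPM in LK2-ctrl libraries, which did not overlap (log2 ratio 0.13, SE 0.07, adjusted p = 0.857). LIFR, the receptor of LIF, was at 9.16, 8.71 and 8.52 CPM in LC-AI-maspin, against 11.5, 9.89 and 10.3 CPM in LC-AI-ctrl libraries. The groups were apart, with a log2 ratio of -0.27 (SE 0.09) and an adjusted p of 0.0729, or 0.0261 with the replicate block, 0.0370 by DESeq2 and 0.0490 without LC-AI-ctrl library 2. For LK-2 cells it was at 50.6, 49.2 and 51.4 CPM in LK2-maspin and 52.2, 48.4 and 47.1 CPM in LK2-ctrl libraries. OSMR, the chain for oncostatin M and interleukin-31, was at 63.7, 66.6 and 61.3 CPM in LC-AI-maspin and 67.1, 64.8 and 64.1 CPM in LC-AI-ctrl libraries, and at 12.4, 15.6 and 18.4 CPM in LK2-maspin and 14.1, 15.1 and 14.5 CPM in LK2-ctrl libraries. Its libraries overlapped in both lines.

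IL10RB, which serves interleukin-10, interleukin-22 and type III interferons, was at 18.4, 17.1 and 18.2 CPM in LC-AI-maspin, against 22.2, 18.7 and 20.3 CPM in LC-AI-ctrl libraries. Its log2 ratio of -0.19 (SE 0.07) had an adjusted p of 0.114, of 0.0365 with the replicate block and of 0.0346 without LC-AI-ctrl library 2. Among LK-2 libraries it was at 18.8, 19.0 and 21.1 CPM in LK2-maspin and 18.5, 18.4 and 19.7 CPM in LK2-ctrl libraries. IL4R, the α chain that pairs with IL13RA1, was at 34.6, 34.7 and 33.9 CPM in LC-AI-maspin and 33.4, 38.8 and 32.1 CPM in LC-AI-ctrl libraries, and at 1.61, 1.04 and 1.57 CPM in LK2-maspin and 1.32, 1.85 and 1.56 CPM in LK2-ctrl libraries. It did not pass in either line, with log2 ratios of -0.02 (SE 0.06) and -0.16 (SE 0.23).

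The next test asked whether the effect, the difference between maspin and ctrl cells, was unlike in the 2 lines. The effect in RERF-LC-AI cells minus that in LK-2 cells was tested in 1 fit of all 12 libraries. Of 43 genes tested, 2 passed (4.65%), where 1.76% of 28123 genes did (0.402% with a higher and 1.35% with a lower effect in RERF-LC-AI cells). The difference between the lines was 0.49 for NFKB2 on the log2 scale (SE 0.09, adjusted p = 0.00633), and -1.75 for IL7R (SE 0.25, adjusted p = 0.000624). These 2 calls held in every alternative run. For IL6R the difference was -0.54 (SE 0.14, adjusted p = 0.0535, but 0.0101 by the likelihood ratio test, 0.00318 by DESeq2 and 0.00292 without LK2-ctrl library 1). With the replicate block 6 genes passed, 2 higher and 4 lower (8.08% of all genes did, 2.95% higher and 5.13% lower), the added ones being RELA (-0.22, adjusted p = 0.0301), IL32 (1.04, 0.0311), IL6R (-0.54, 0.00131) and LIFR (-0.30, 0.0421). Without LK2-ctrl library 1 the count was 4, where 495 of 28991 genes passed. The other 7 genes called in RERF-LC-AI cells had adjusted p from 0.164 to 0.814 for the difference between the lines, so that their calls are not shown to be particular to RERF-LC-AI cells. The maspin RNA level itself differed between the lines. In the paper, maspin protein was nuclear and cytoplasmic in LK2-maspin cells, but detected in the cytoplasm and not the nucleus of LC-AI-maspin cells. The parts of maspin level, its place in the cell and the line cannot be told apart.

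The lines also differed in how much of these genes they held in ctrl cells, which was not tested because the 2 tables were made separately. Mean levels were over 2 times higher in LC-AI-ctrl than in LK2-ctrl cells for 24 of the 43 genes with counts in LK2-ctrl cells, and over 2 times higher in LK2-ctrl cells for 6. The same counts were not taken over all genes, here or for the levels under 1 CPM below. They are therefore not shown to be particular to these genes. CSF1 averaged 48.3 ± 1.09 CPM in LC-AI-ctrl and 0.601 ± 0.171 CPM in LK2-ctrl cells (SD, n = 3 each), an 80.3-fold ratio. The ratio was 68.0 for IL32, 47.0 for CXCL5, 34.4 for LIF and 22.1 for IL4R. RELB (9.11), BIRC3 (8.69), IL6R (7.44), IL7R (5.82) and NFKB2 (3.003) were on the same side. On the other side, REL averaged 56.0 ± 1.52 CPM in LC-AI-ctrl and 231 ± 0.575 CPM in LK2-ctrl cells, and TNFAIP2 and LIFR were 4.35 and 4.66 times higher in LK2-ctrl cells. Of the 44 genes, 8 had a mean under 1 CPM in LC-AI-maspin and 10 in LC-AI-ctrl cells, against 17 in LK2-maspin and 17 in LK2-ctrl cells. Of the 12 genes called in RERF-LC-AI cells, all but RELA (ratio 1.60), IL13RA1 (1.03) and TNFAIP2 were over 2 times lower in LK2-ctrl cells. The part of lower counts in the precision was not tested. Variation between libraries beyond counting error, as fitted by edgeR without the replicate block, was also larger for LK-2 (11.7%) than for RERF-LC-AI libraries (6.43%). For RELA, IL13RA1 and TNFAIP2 the SE was 0.06, 0.10 and 0.09 in LK-2 cells. It was 0.05, 0.05 and 0.11 in RERF-LC-AI cells.

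**Figure D3:**
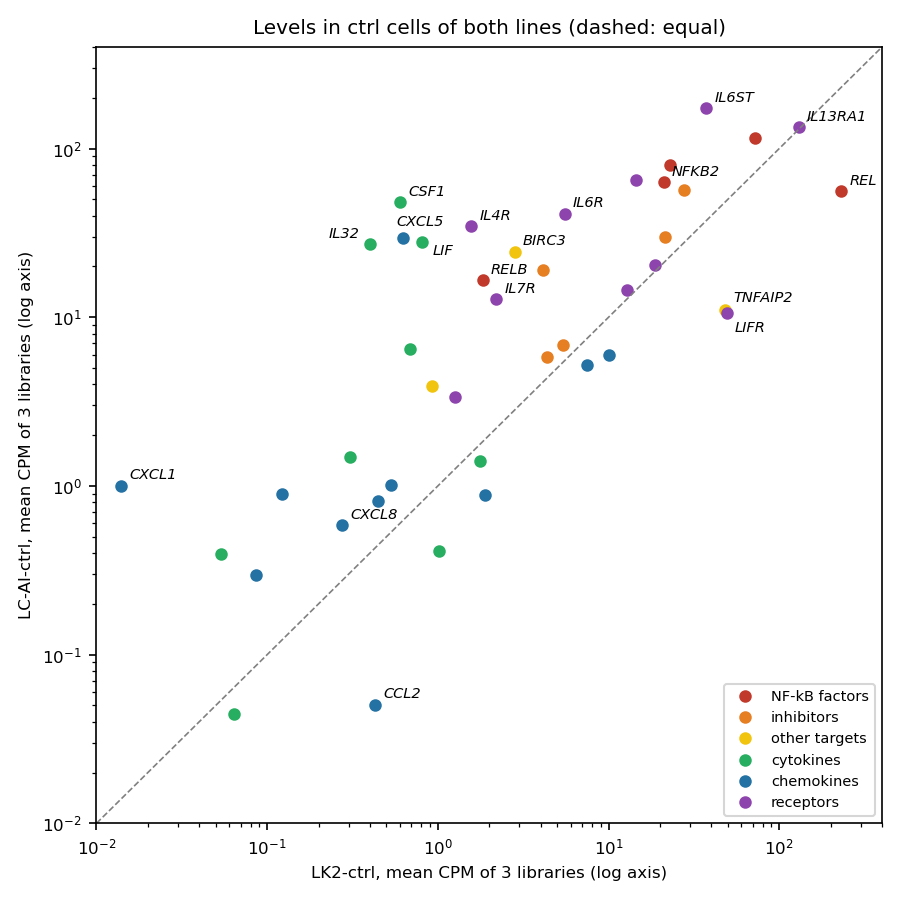
Mean level of each gene over 3 libraries in LC-AI-ctrl cells (vertical log axis, CPM) against LK2-ctrl cells (horizontal log axis, CPM), coloured by role; TNF, with 0 counts in LK2-ctrl libraries, is not drawn. Most points lie above the dashed line of equal levels, with CSF1, IL32, CXCL5 and LIF farthest up among the well measured genes and REL, TNFAIP2 and LIFR below it.

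The wider pathway was described from lists of other genes with known roles. Of 49 other genes of NF-κB signalling, 3 were higher and 5 lower in LC-AI-maspin cells (16.3%, against 10.5% of all genes), with a median log2 ratio of 0.01, as over all genes. MALT1, a protease in the pathway from antigen receptors, was at 47.3, 48.7 and 47.3 CPM in LC-AI-maspin, against 57.8, 64.8 and 63.8 CPM in LC-AI-ctrl libraries (log2 ratio -0.38, SE 0.05, adjusted p = 1.12e-05). BIRC2, which encodes cIAP1, the sister protein of the BIRC3 product, was at 68.9, 77.8 and 72.6 CPM, against 87.0, 108 and 94.8 CPM in LC-AI-ctrl libraries. It fell by 0.40 on the log2 scale (SE 0.06, adjusted p = 2.69e-05), while BIRC3 was higher. IRAK1, a kinase of interleukin-1 and toll-like receptors, fell by 0.27 (SE 0.05, adjusted p = 0.000202), and TRAF2, an adaptor of tumor necrosis factor receptors, fell by 0.21 (SE 0.05, adjusted p = 0.00625). With all 12 libraries in 1 fit the adjusted p was 0.0663 for IRAK1 and 0.0808 for TRAF2. The other 4, named outside the rule, were the adaptor MYD88 (lower, -0.26, adjusted p = 0.0106), the receptor TLR6 (higher, 0.35, 0.00816), the kinase IRAK2 (higher, 0.25, 0.0125) and RBCK1, a subunit of the linear ubiquitin ligase (higher, 0.17, 0.0394). Each of these 4 lost its call without some library, with adjusted p of 0.0640 and 0.161 for MYD88 (LC-AI-ctrl 3, LC-AI-maspin 3), 0.0681 for TLR6 (LC-AI-maspin 3), 0.183, 0.0689 and 0.0545 for IRAK2 (LC-AI-ctrl 3, LC-AI-maspin 1 and 2), and 0.208, 0.152, 0.128 and 0.171 for RBCK1 (LC-AI-ctrl 2 and 3, LC-AI-maspin 1 and 3). With all 12 libraries in 1 fit it was 0.0880 for MYD88, 0.179 for IRAK2 and 0.178 for RBCK1. In LK-2 cells 1 of 48 passed. LTBR, the lymphotoxin-β receptor and an inducer of the noncanonical pathway, was at 36.3, 35.9 and 35.02 CPM in LK2-maspin, against 46.9, 46.6 and 44.7 CPM in LK2-ctrl libraries (log2 ratio -0.37, SE 0.06, adjusted p = 0.0250). That call was lost without LK2-ctrl library 1 or 2 (adjusted p = 0.0959 and 0.203) and without LK2-maspin library 1, 2 or 3 (0.0632, 0.223 and 0.142). With the replicate block 4 of the 48 passed in LK-2 cells, among them IRAK1 (higher, 0.27, 8.68e-08), and LTBR was also lower in RERF-LC-AI cells (-0.12, 0.0312), with a difference between the lines of 0.25 (0.0220).

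Of 26 further target genes of NF-κB, 22 were tested in RERF-LC-AI cells, and 5 were higher and 0 lower (4.01% and 6.53% of all genes), or 6 and 2 with the replicate block, with a median log2 ratio of 0.17 against 0.01 over all genes. CEBPB, a transcription factor that works beside NF-κB on acute-phase genes, was at 112, 120 and 113 CPM in LC-AI-maspin, against 92.6, 89.7 and 84.7 CPM in LC-AI-ctrl libraries (log2 ratio 0.37, SE 0.05, adjusted p = 4.86e-06). PTX3, a secreted pattern-recognition protein, was at 88.2, 94.7 and 80.9 CPM, against 72.7, 78.2 and 70.1 CPM in LC-AI-ctrl libraries (log2 ratio 0.26, SE 0.06, adjusted p = 0.00217, but 0.236 with all 12 libraries in 1 fit). CD83, a surface protein of activated dendritic cells, was higher by 0.39 (SE 0.10, adjusted p = 0.00917) and IER3, an early response gene for survival, by 0.34 (SE 0.10, adjusted p = 0.0225). CD70, a ligand of the tumor necrosis factor family and the fifth of these, is named outside the rule (0.30, SE 0.10, adjusted p = 0.0462). CD83 did not pass without LC-AI-ctrl library 1 (adjusted p = 0.0660) or LC-AI-maspin library 2 (0.115) or with all 12 libraries in 1 fit (0.0568). IER3 did not pass by DESeq2 (0.225), with all 12 libraries in 1 fit (0.286) or without LC-AI-ctrl library 2 or 3 (0.133 and 0.103) or LC-AI-maspin library 1 (0.250), and CD70 did not pass with all 12 libraries in 1 fit (0.292) or without any one of LC-AI-ctrl libraries 2 and 3 (0.101 and 0.297) and LC-AI-maspin libraries 1, 2 and 3 (0.153, 0.154 and 0.0554). In LK-2 cells 0 of 20 passed, with 1 at an unadjusted p under 0.05, or 2 with the replicate block, where PTX3 was lower (-0.41, adjusted p = 3.89e-06).

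**Figure D4:**
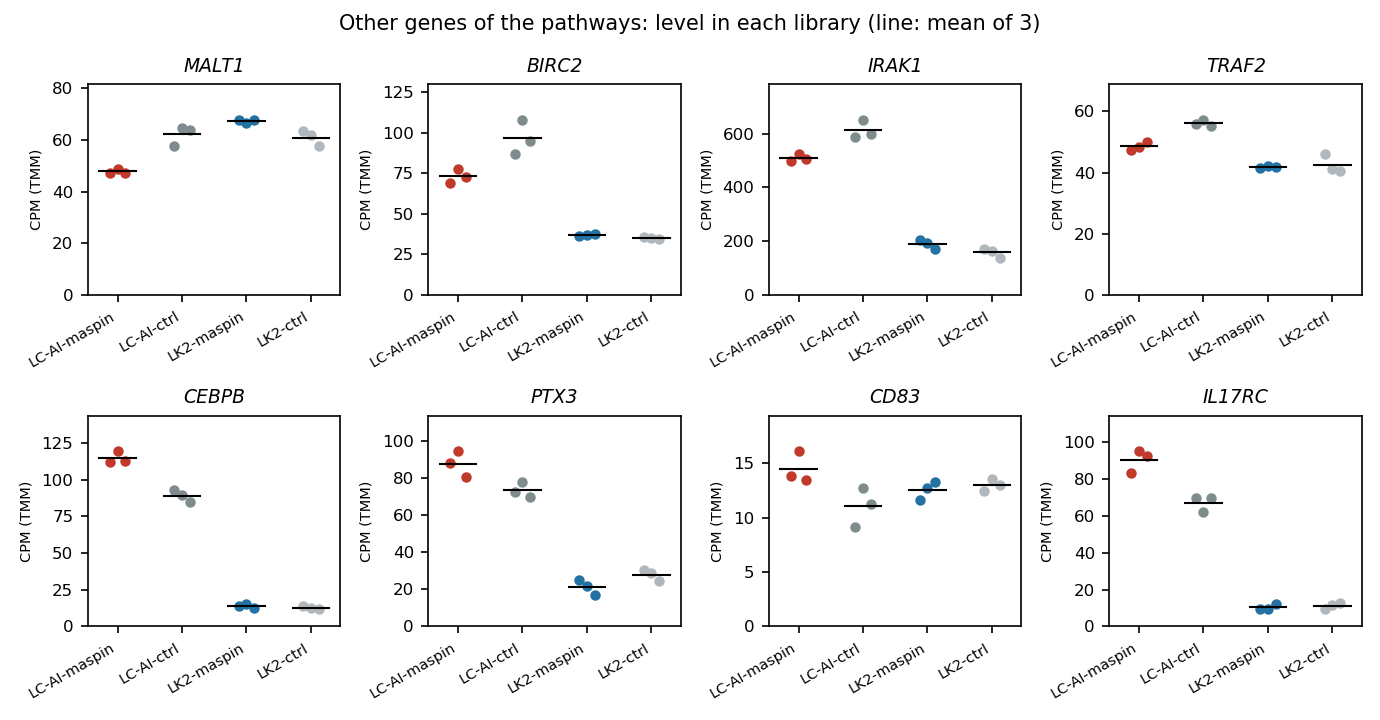
Level in CPM (vertical axes, each from 0) in every library of 8 other genes of NF-κB signalling, NF-κB targets and interleukin receptors; points are libraries and lines are means of 3. LC-AI-maspin points lie below LC-AI-ctrl points for MALT1, BIRC2, IRAK1 and TRAF2 and above them for CEBPB, PTX3, CD83 and IL17RC.

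Of 28 JAK, STAT and SOCS genes and their regulators, 0 were higher and 4 lower in LC-AI-maspin cells (14.3%, against 10.5% of all genes), or 2 and 5 with the replicate block, with a median log2 ratio of -0.04 against 0.01 over all genes. Those described here are STAT6 (-0.20, SE 0.06, adjusted p = 0.0141), which acts below the IL4R and IL13RA1 chains, STAT3 (-0.15, SE 0.05, 0.0306), which acts below IL6ST, and SOCS5 (-0.18, SE 0.06, 0.0370). None of these 3 calls held in all alternatives. STAT6 was lost without LC-AI-ctrl library 1 or 3 (adjusted p = 0.0764 and 0.0793) and LC-AI-maspin library 2 or 3 (0.0528 and 0.177). STAT3 was lost without LC-AI-ctrl library 1 or 3 (0.0933 and 0.105) and LC-AI-maspin library 1 or 3 (0.0892 and 0.191), and SOCS5 without LC-AI-ctrl library 1 or 3 (0.107 and 0.134) and LC-AI-maspin library 2 or 3 (0.178 and 0.0928). With all 12 libraries in 1 fit the adjusted p was 0.357 for STAT6, 0.155 for STAT3 and 0.242 for SOCS5. In LK-2 cells 0 of 27 passed, also with the replicate block, with 1 at an unadjusted p under 0.05.

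Of 66 other chemokines, interleukins and growth factors of blood cells, 29 were high enough to be tested in RERF-LC-AI cells, and 2 were lower (6.9%, against 10.5% of all genes). CLCF1, a further ligand of the interleukin-6 family, was at 6.87, 7.09 and 6.58 CPM in LC-AI-maspin, against 10.4, 10.3 and 8.70 CPM in LC-AI-ctrl libraries (log2 ratio -0.52, SE 0.10, adjusted p = 0.000604, but 0.0694 with all 12 libraries in 1 fit). EBI3, a subunit of interleukin-27 and interleukin-35, fell by 0.49 (SE 0.15, adjusted p = 0.0370), a call lost without LC-AI-ctrl library 1 or 2 (0.113 and 0.183) and without any one LC-AI-maspin library (0.0892, 0.0537 and 0.173), and with all 12 libraries in 1 fit (0.145). Of 57 other receptors of these ligands, 44 were tested and 2 were higher (4.55%), or 3 higher and 1 lower with the replicate block. IL17RC, the partner chain of the interleukin-17 receptor, was at 83.5, 95.3 and 92.6 CPM in LC-AI-maspin, against 70.0, 62.0 and 69.6 CPM in LC-AI-ctrl libraries (log2 ratio 0.43, SE 0.06, adjusted p = 2.78e-06). IL17RE, which binds interleukin-17C, was at 5.46, 4.35 and 4.07 CPM, against 3.62, 2.57 and 2.93 CPM in LC-AI-ctrl libraries (log2 ratio 0.60, SE 0.15, adjusted p = 0.00750, but 0.0736 without LC-AI-maspin library 1 and 0.0707 with all 12 libraries in 1 fit). In LK-2 cells 0 of 34 ligands and 0 of 47 receptors passed, with 0 and 5 at an unadjusted p under 0.05, or 2 of each with the replicate block.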

How the data were processed

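Poly(A) RNA of stable LK-2 and RERF-LC-AI cells was sequenced on strand-specific libraries by the authors, and the deposited counts are mapped reads per gene after Trimmomatic 0.39, BWA 0.7.17 and SAMtools (1.12 for LK-2, 1.10 for RERF-LC-AI) on GRCh38.p13, with edgeR 3.16.5 for the deposited scaled signal columns, which were left unused. How reads were assigned to genes was not given in the sources used here. In both tables, 646 lines had no gene symbol (0.410 to 0.416% of counts in LK-2, 0.292 to 0.298% in RERF-LC-AI) and were left out. Among counts of 1 to 9, only 23.7 to 26% were odd, so many low counts come in pairs of reads, and counting intervals and floors, which cover counting error only, are too narrow.

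Each line was fitted on its own with edgeR 4.0.16 (R 4.3.3, limma 3.58.1): TMM factors, filterByExpr (minimum count 10, total 15), the quasi-likelihood test, and Benjamini-Hochberg adjustment over all genes at 0.05. The difference between the lines was an interaction over 12 libraries. These main fits left the replicate number out, and results with it as a block are given beside them. The scripts were tested on simulated data. Alternatives were other size factors and filters, the likelihood ratio test, DESeq2 1.42.0, a threshold of 0.01, all 12 libraries in 1 fit, each library left out in turn, and the replicate number as a block. Deviations of equal-numbered libraries correlated at 0.744, 0.113 and 0.750 in LK-2 and 0.369, 0.390 and 0.203 in RERF-LC-AI cells (10778 and 10471 genes with mean log2 CPM over 3), so the numbers were taken to pair the libraries, from the data and not from the labels. LK2-maspin library 1 also correlated with LK2-ctrl library 2 (0.180), and over all genes tested the equal-numbered correlations were only 0.00167 to 0.164.

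All 44 genes were described; of each wider list, up to 4 called genes with the smallest adjusted p were named by rule. One gene that the rule names is not reported here. The members and lists were chosen with earlier results of these data known. The labels do not say that libraries came from separate cultures, so p-values measure the spread between libraries, which may be technical. Figures used matplotlib 3.10.9.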

Additional observations from a re-analysis of the deposited data

Results flagged for a closer look

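The effect of maspin differed between RERF-LC-AI and LK-2 cells, by the interaction test over 12 libraries, for 6 of the cytokine and NF-κB genes named, and for SERPINB5 (6.52), KRT8 (-0.74) and KRT18 (-0.64) besides. The effect in RERF-LC-AI minus that in LK-2 cells was 0.49 for NFKB2, -1.75 for IL7R and -0.52 for MALT1 on the log2 scale, and these 3 differences passed under every alternative run. It was -0.48 for BIRC2 (adjusted p = 0.0195), -0.53 for IRAK1 (0.0159) and 0.66 for PTX3 (0.0299). The difference for IRAK1 did not pass without LC-AI-ctrl library 2 (0.0598) or LC-AI-maspin library 3 (0.0523). That for BIRC2 did not pass without LK2-ctrl library 2 (0.0533), LK2-maspin library 2 (0.0550), LC-AI-ctrl library 2 or 3 (0.0638 and 0.0509) or LC-AI-maspin library 1 or 3 (0.0679 and 0.0661). That for PTX3 did not pass without any one of LK2-ctrl libraries 1 and 2 (0.0557 and 0.0925), LK2-maspin libraries 2 and 3 (0.0871 and 0.0717), LC-AI-ctrl libraries 1 and 3 (0.0797 and 0.0981) and LC-AI-maspin libraries 1 and 2 (0.0716 and 0.107). The maspin level, its place in the cell, the line, the pooled populations and the separate processing of the tables cannot be told apart in these differences.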

How the results depend on the processing

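Direction was checked for 49 results that passed in the main fits or, for the 44 genes, with the replicate block. Of these, 0 reversed direction under any alternative run. The other genes were not checked for this. The count of the 44 genes called in RERF-LC-AI cells was 12, 6 with all 12 libraries in 1 fit, and 9 to 13 with a library left out. In LK-2 cells it was 0, and 2 with the replicate block. For the difference between the lines it was 2, 4 by the likelihood ratio test without a filter, 6 with the replicate block, and 2 to 4 with a library left out. Over all genes, calls in LK-2 cells numbered 140, against 70 at 0.01, 314 and 279 by the likelihood ratio test with and without a filter, 280 by DESeq2, 1190 with the replicate block, 251 with all 12 libraries in 1 fit, and 50 to 199 with a library left out, the lowest without LK2-ctrl library 2. In RERF-LC-AI cells they numbered 2655, against 1642 at 0.01, 4081 with the replicate block, 1163 with all 12 libraries in 1 fit, and 1764 to 2594 with a library left out. For the difference they numbered 494, against 196 at 0.01, 884 and 894 by the likelihood ratio test with and without a filter, 981 by DESeq2, 2273 with the replicate block, and 275 to 754 with a library left out. The cause of these shifts was not tested. Among the genes named other than the cell type markers, the block changed no call beyond those given with their blocked values and the differences between the lines for TLR6 (0.50, adjusted p = 0.00914), RBCK1 (0.32, 0.00224), CD83 (0.45, 0.0109) and IL17RC (0.54, 0.000216).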
